A study of Mus musculus with 2 samples.

Results

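Among the droplets of a mouse islet single-cell experiment, a small set held few RNA molecules, a large share of Malat1 RNA and hormone RNA at the same time. These Malat1-rich droplets were chosen by 5 measured values. A droplet was a member if it had more than 200 genes, fewer than 3000 UMIs (unique molecular identifiers, each marking 1 captured RNA molecule), under 10% of UMIs from the mitochondrially encoded mt- genes, at least 5% of UMIs from Malat1 and at least 5% from the 5 islet hormone genes Ins1, Ins2, Gcg, Sst and Ppy together. The rule found 150 members among 10538 barcodes, 34 of 5463 in the library of virgin mice (0.622%, 95% Clopper-Pearson interval 0.431 to 0.869) and 116 of 5075 in the library of multiparous mice (2.29%, 1.89 to 2.74). They made up 7.05% of all droplets under 3000 UMIs that passed the gene and mt- limits in the virgin library and 29.6% in the multipara library. All intervals given here cover counting error only.

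Malat1 is a long noncoding RNA that is kept in the nucleus, where it gathers at nuclear speckles. Instead of a poly(A) tail it ends in a triple helix, in which U-rich stretches pair with an A-rich stretch encoded in the gene, and this tract can also be captured by the oligo(dT) primers of 3′ single-cell chemistry. Other RNAs are enriched in nuclei too: the imprinted long noncoding RNA Meg3, the X inactivation RNA Xist, Neat1, which builds paraspeckles, and mRNAs spliced slowly or held back with an intron, such as Mlxipl, which encodes the glucose-responsive transcription factor ChREBP. The mRNAs of ribosomal proteins are cytosolic, and those of secreted proteins such as insulin are translated at the endoplasmic reticulum (ER). The end of the mature Malat1 RNA (ENSMUSG00000092341, GRCm38, chr19:5795982-5796109, minus strand, within the single exon of the annotated transcript) is shown because it holds the A-rich stretch that oligo(dT) primers can capture. Counts per gene do not show where in the RNA the primers bound. Capitals mark the longest run of A in the transcript, 12 bases at positions 6674 to 6685 of 6983.
Malat1: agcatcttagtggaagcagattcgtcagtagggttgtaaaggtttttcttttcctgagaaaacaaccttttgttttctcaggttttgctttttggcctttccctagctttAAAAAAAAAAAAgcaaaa

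The islets came from wild-type female C57BL/6J mice that entered the study at 9 weeks of age. The multipara group gave birth 3 times in a row and was sampled 3 weeks after the last delivery, and the virgin group were littermates that were not mated. Islets of both groups were kept for 30 minutes in medium with 10% serum and dissociated with 0.25% trypsin. Each group was 1 library, and the number of mice in it is not given in the labels. Differences between the libraries therefore compare 2 libraries and have no replicate check.

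The libraries held 94853806 and 82503776 UMIs, and no barcode in either had fewer than 500. There were 7 barcodes in common between the libraries, of which 1 belonged to a virgin member and 0 to a multipara member. The members were set beside beta cells of high depth (deep beta cells), with at least 10000 UMIs, at least 20% of UMIs from insulin (Ins1 and Ins2) and under 1% from the other hormones, of which there were 1576 virgin and 1375 multipara cells. They were also set beside Malat1-low droplets, 208 virgin and 241 multipara, which met every part of the rule except that Malat1 was under 5%.

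The members varied widely in the values that chose them, and these values are given as a description. Malat1 took a median of 15.2% of UMIs in virgin members (lowest 5.76%, highest 41.8%) and 10.0% in multipara members (5.06 to 33.9%), against a median of 0.701% and 0.623% in deep beta cells and 0.517% and 0.699% in Malat1-low droplets. Virgin members had a median of 1303.5 UMIs (555 to 2885) and 610.5 genes (309 to 1246). Multipara members had a median of 1533 UMIs (501 to 2938) and 697 genes (222 to 1420). The droplets of the 2 libraries thus covered almost the same range of depth, while virgin droplets tended to hold more Malat1. Hormone RNA made up a median of 9.74% of UMIs in virgin members (5.17 to 44.9%) and 19.5% in multipara members (5.01 to 55.2%). The mt- genes gave a median of 2.68% and 2.91%, below the 5.09% and 4.88% of Malat1-low droplets and the 4.04% and 3.91% of deep beta cells.

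Few members sat at the edges of the rule in the virgin library, and more did so in the multipara library. With Malat1 between 5 and 6% there were 1 virgin and 13 multipara members, and 3 and 23 droplets lay just outside, between 4 and 5%. With hormones between 5 and 6% there were 2 and 5 members, and 2 and 2 droplets lay between 4 and 5%. In the 500 UMIs below the limit of 3000 there were 1 and 7 members, and in the 500 above it 0 and 2 droplets. Droplets with the same Malat1 and hormone levels but at least 3000 UMIs numbered 15 and 17. The limit on mt- genes removed more: without it the rule held 82 virgin and 241 multipara droplets.

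Insulin was the leading hormone in 30 of 34 virgin and 115 of 116 multipara members. Glucagon (Gcg), the alpha cell hormone, led in 1 member of each library, somatostatin (Sst), the delta cell hormone, in 2 virgin members, and pancreatic polypeptide (Ppy) in 1 virgin member. Insulin gave at least 80% of the hormone UMIs in 30 virgin and 114 multipara members, called insulin-dominant here. Over all members, insulin reached the 20% of UMIs set for deep beta cells in 5 of 34 virgin and 53 of 116 multipara droplets.

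The hormone limit lay near the level of free hormone RNA in the multipara library. Droplets under 3000 UMIs that carried leukocyte markers, which should hold no hormone RNA of their own, reached 5% hormone UMIs in 1 of 130 cases in the virgin library (0.769%, 0.0195 to 4.21) and in 35 of 46 in the multipara library (76.1%, 61.2 to 87.4). Droplets of the same depth with endothelial markers reached it in 23.2% and 69.8%. The hormone value alone therefore did not separate endocrine from other droplets in the multipara library, and the identity of the members was read from other genes.

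By those other genes, 1 virgin and 12 multipara members went against the label endocrine. The virgin droplet had at least 3 UMIs of the mesenchymal markers (Col1a1, Col1a2, Col3a1, Dcn, Pdgfrb and Rgs5). Of the multipara droplets, 8 reached 3 UMIs of the mesenchymal markers and 5 of the endothelial markers (Pecam1, Plvap, Kdr, Cdh5, Egfl7, Flt1 and Esam). The summed mesenchymal markers ran from 0 to 15 UMIs per virgin member and from 0 to 37 per multipara member, and the endothelial markers from 0 to 2 and from 0 to 47. Ductal markers, of which Krt18 gave the UMIs, reached 3 in 1 and 5 members and were not used. In the other members no list of mesenchymal, endothelial, macrophage, T cell, B cell, leukocyte, acinar or erythroid markers reached 3 UMIs. B cell, acinar and general leukocyte markers (Cd79a, Prss2 and Ptprc among them) were at 0 in all 34 virgin and all 116 multipara members, which allows shares of droplets with a UMI of up to 8.82% and 2.59%. Among Malat1-low droplets, 32 of 208 and 99 of 241 reached 3 UMIs of such a list.

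The mesenchymal or endothelial droplets held little nuclear long noncoding RNA other than Malat1. Shares of UMIs are given from here on as a percent of net UMIs, the total after Malat1, the 5 hormones and mt- genes were removed. The nuclear long noncoding RNA list holds 14 RNAs, Meg3, Xist, Neat1 and Kcnq1ot1 among them. In the virgin marked droplet the list gave 0.157% of net UMIs, and in the 12 multipara marked droplets between 0 and 0.347% (median 0.155%). In the other 33 virgin members it gave between 1.02 and 9.58% (median 3.72%), and in the other 104 multipara members between 1.08 and 7.48% (median 3.98%). The groups did not overlap in either library. Meg3 had no UMI in the virgin marked droplet and in 10 of the 12 multipara marked droplets, and at least 1 UMI in every other member. Ribosomal protein mRNAs took a median of 8.45% in the 12 multipara marked droplets and 2.16% in the other 104, and the summed beta cell identity genes (Pdx1, Nkx6-1, Mafa and others) 0.0256% and 0.838%. In the multipara library the marked droplets had less insulin, a median of 6.09% of UMIs against 19.98%, while in the virgin library the 1 marked droplet had 9.18% against a median of 7.96% in the other 33. Results below are given over all members, and for some lists and genes also without the marked droplets.

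**Figure D1:**
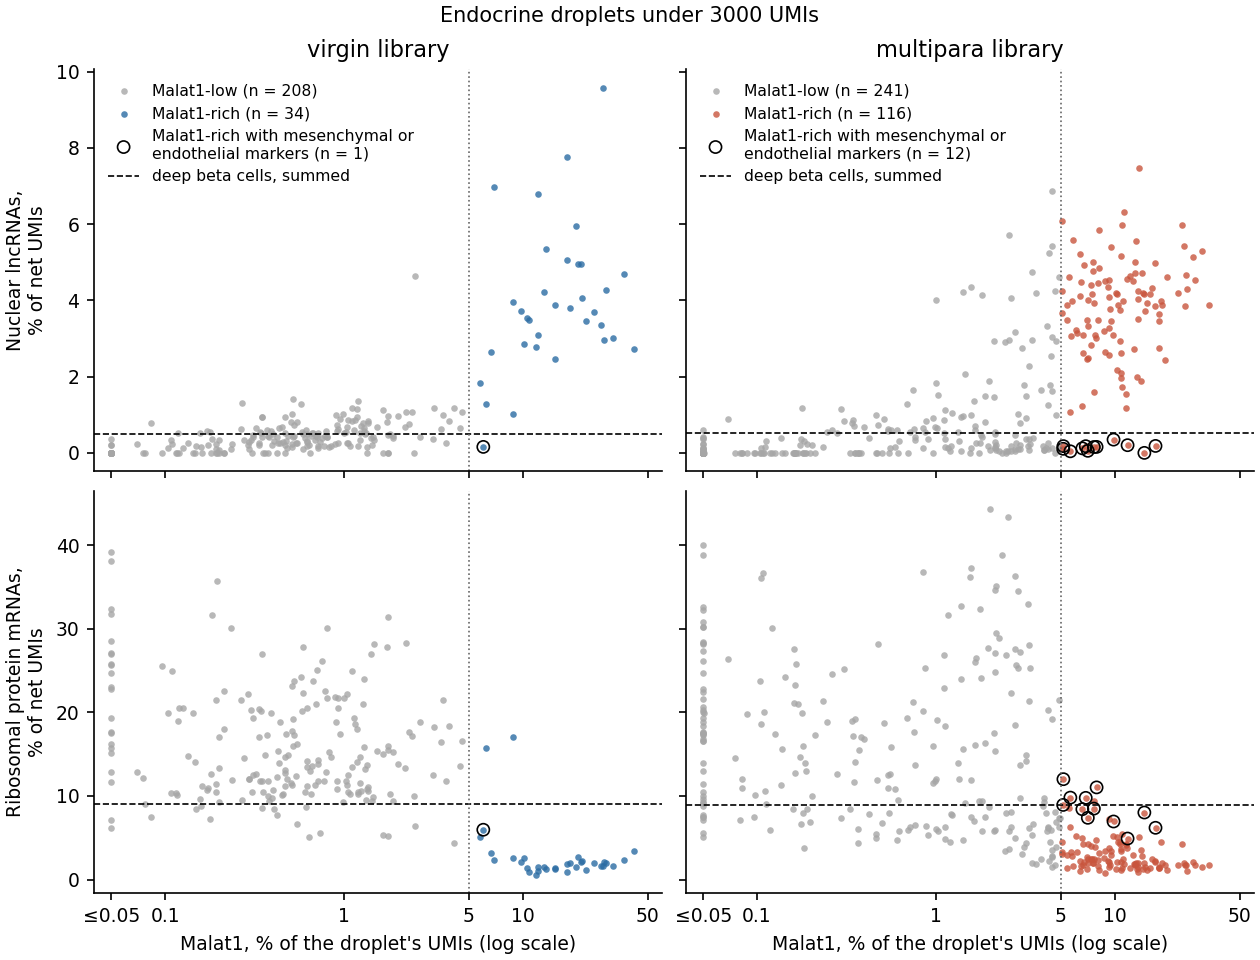
Share of net UMIs from nuclear long noncoding RNAs (top) and ribosomal protein mRNAs (bottom) against the Malat1 share of all UMIs (log scale, values at or under 0.05 drawn at the left edge) for every droplet under 3000 UMIs with at least 5% hormone RNA, with Malat1-rich droplets in colour, Malat1-low droplets in grey, rings around the 1 virgin and 12 multipara members with mesenchymal or endothelial markers, a dotted line at the 5% limit and a dashed line at the sum over deep beta cells. Most coloured points lie above the dashed line in the top panels and below it in the bottom panels, and the ringed points lie near 0 at the top.

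Most members without such markers carried RNA of beta cells beyond hormone RNA. At least 3 UMIs of the beta cell markers other than insulin (Iapp, Mafa, Slc2a2, G6pc2, Nkx6-1, Pdx1, Ucn3 and Slc30a8) were found in 31 of the 33 virgin and in all 104 multipara members without mesenchymal or endothelial markers, and also in the 1 virgin and in 11 of the 12 multipara marked droplets. Most of these UMIs were Iapp, which encodes the granule peptide amylin and which leukocyte-marked droplets held as well. With Iapp left out, at least 3 UMIs of the other 7 markers were found in 16 of the 33 and 74 of the 104 members without mesenchymal or endothelial markers, and in 0 of the 1 and 0 of the 12 marked droplets. At least 1 such UMI was found in 27 and 97 of the former, and in 1 and 5 of the latter. After every droplet was thinned to 400 net UMIs, Iapp UMIs occurred in 90.6% of 32 virgin members and 98.0% of 101 multipara members. They occurred in 47.1% and 70.3% of 416 and 195 leukocyte-marked droplets of any depth. Most of the latter held 3000 UMIs or more, and these had a lower median hormone share than those under 3000 UMIs. Shallower droplets, 2 virgin and 15 multipara members, were left out of the thinned values.

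Nuclear long noncoding RNAs took a larger share of the RNA of members than of deep beta cells. Summed over droplets, the list gave 3.51% of net UMIs in virgin members (95% Poisson interval 3.30 to 3.73, 1019 UMIs) and 3.34% in multipara members (3.23 to 3.45, 3684 UMIs). Deep beta cells had 0.499% and 0.510%, and Malat1-low droplets 0.485% and 0.550%. The log2 ratio of members to deep beta cells was 2.81 for the virgin and 2.71 for the multipara library, and without the marked droplets 2.91 and 2.97. Meg3, which was picked as a marker from the same counts, gave much of this sum, and without it the list gave 1.501% in virgin members (1.36 to 1.65) and 1.504% in multipara members (1.43 to 1.58), against 0.213% and 0.232% in deep beta cells and 0.204% and 0.218% in Malat1-low droplets, log2 ratios to deep beta cells of 2.82 and 2.70. Of the single members, 33 of 34 virgin and 95 of 116 multipara droplets lay above the value that 90% of the Malat1-low droplets stayed under (0.936% and 2.08%).

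Genes were tested on UMIs summed per library and class, 4 sums in all, with edgeR's quasi-likelihood test, the library as a block and Benjamini-Hochberg adjustment over all genes tested. The 2 libraries were the replicates of the class difference, so its error has 1 residual degree of freedom, with the spread shared over genes. They also differ in parity, and p-values measure the spread between these 2 libraries. Of 31053 genes, 1013 had enough UMIs to be tested, and genes high in the members passed that limit more easily. Against deep beta cells, 362 of the 1013 were higher in members (35.7%) and 379 lower (37.4%), with a median log2 difference of -0.06 over all genes tested. Without the marked droplets the counts were 330 and 357. The counts for gene lists below are read beside these shares. Because some listed genes were tested only through their level in members, each list of genes that were higher is also counted over those genes whose mean in deep beta cells alone met the limit, 172 CPM, a count chosen after seeing the data. Over all such genes, 735 in number, 16.3% were higher and 51.6% lower. The comparison with Malat1-low droplets uses the same member sums, so the 2 comparisons are not independent.

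Of the list's 14 nuclear long noncoding RNAs, 5 had enough UMIs, and the 4 of them besides the marker Meg3 were called higher in members than in deep beta cells. Xist, Kcnq1ot1 and Neat1 met the limit by their level in deep beta cells, and Snhg11 passed it only through the members. Xist, which coats the inactive X chromosome (chrX:103460366-103483254, minus strand), had 10022 and 8960 CPM (UMIs scaled to one common total of net UMIs in every sum) in virgin and multipara members and 1303 and 1320 CPM in deep beta cells. Members lay far above beta cells in both libraries, a log2 difference of 2.80 (SE 0.23, adjusted p = 1.06e-30). Kcnq1ot1, an imprinted RNA antisense to Kcnq1, had 1550 and 2158 CPM against 294 and 264 CPM (2.70, SE 0.29, adjusted p = 7.53e-18). Neat1, on chromosome 19 next to Malat1, had 2101 and 2530 CPM against 403 and 594 CPM (2.18, SE 0.27, adjusted p = 4.98e-14). Snhg11 is the host gene of a small nucleolar RNA and reached 723 and 798 CPM against 44.2 and 61.5 CPM (3.79, SE 0.30, adjusted p = 4.89e-33). Kcnq1ot1 overlaps Kcnq1 on the other strand, and whether counting used strand is not given in the sources used here.

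The remaining markers of these droplets, Meg3, Pclo and Mlxipl, had been picked from the same counts, and their levels are given as a description with no test. Meg3 (chr12:109541001-109571726, plus strand) had 20079 and 18374 CPM in virgin and multipara members, 2869 and 2782 CPM in deep beta cells and 2806 and 3321 CPM in Malat1-low droplets. Its level was thus alike in the 2 libraries within each class. Pclo (chr5:14514918-14863459, plus strand) encodes piccolo, a scaffold of the presynaptic active zone, and had 1653 and 1596 CPM in members, 272 and 260 in deep beta cells and 177 and 218 in Malat1-low droplets. Mlxipl (chr5:135089890-135138382, plus strand) had 1412 and 1841 CPM in members, 237 and 202 in deep beta cells and 145 and 167 in Malat1-low droplets.

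At equal depth, the markers Meg3, Pclo and Mlxipl, picked from the same counts, are described with no test. Of the nuclear RNAs that were not markers, thinned to 400 net UMIs, Xist was found in 90.6% of virgin and 83.2% of multipara members. Deep beta cells had 39.7% and 39.3%. Neat1 was found in 56.3% and 56.4% of members against 15.2% and 20.7%, and Kcnq1ot1 in 40.6% and 50.5% against 12.8% and 9.75%. At 400 net UMIs per droplet, Meg3 was found in 96.9% of virgin members (95% Clopper-Pearson interval 83.8 to 99.9) and 89.1% of multipara members (81.3 to 94.4). It was found in 65.5% and 65.2% of deep beta cells, in 51.5% and 36.5% of Malat1-low droplets and in 3.61% and 7.18% of leukocyte-marked droplets of any depth. Of these 416 virgin and 195 multipara leukocyte-marked droplets, 286 and 149 held 3000 UMIs or more. Their median hormone share was 1.29% and 2.45%, against 2.26% and 5.93% under 3000 UMIs. The leukocyte-marked values here are therefore no background of free RNA at the depth of the members. Without thinning, Meg3 was seen in 97.1% of the 34 virgin members. Pclo was found in 46.9% and 40.6% of members, 10.2% and 11.5% of deep beta cells and 4.08% and 8.85% of Malat1-low droplets, with 0.240% and 1.03% in leukocyte-marked droplets. Mlxipl was found in 56.3% and 45.5% of members and in 10.1% and 8.29% of deep beta cells. A cytosolic mRNA ran the other way: Rplp1, which encodes a stalk protein of the ribosome, was found in 15.6% and 17.8% of members, in 51.0% and 54.1% of deep beta cells and in 66.3% and 69.3% of Malat1-low droplets. The transcription factor Pdx1 was found in 6.25% (0.766 to 20.8) and 9.90% (4.85 to 17.5) of members and 9.14% and 8.36% of deep beta cells, values within the counting error of the members.

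**Figure D2:**
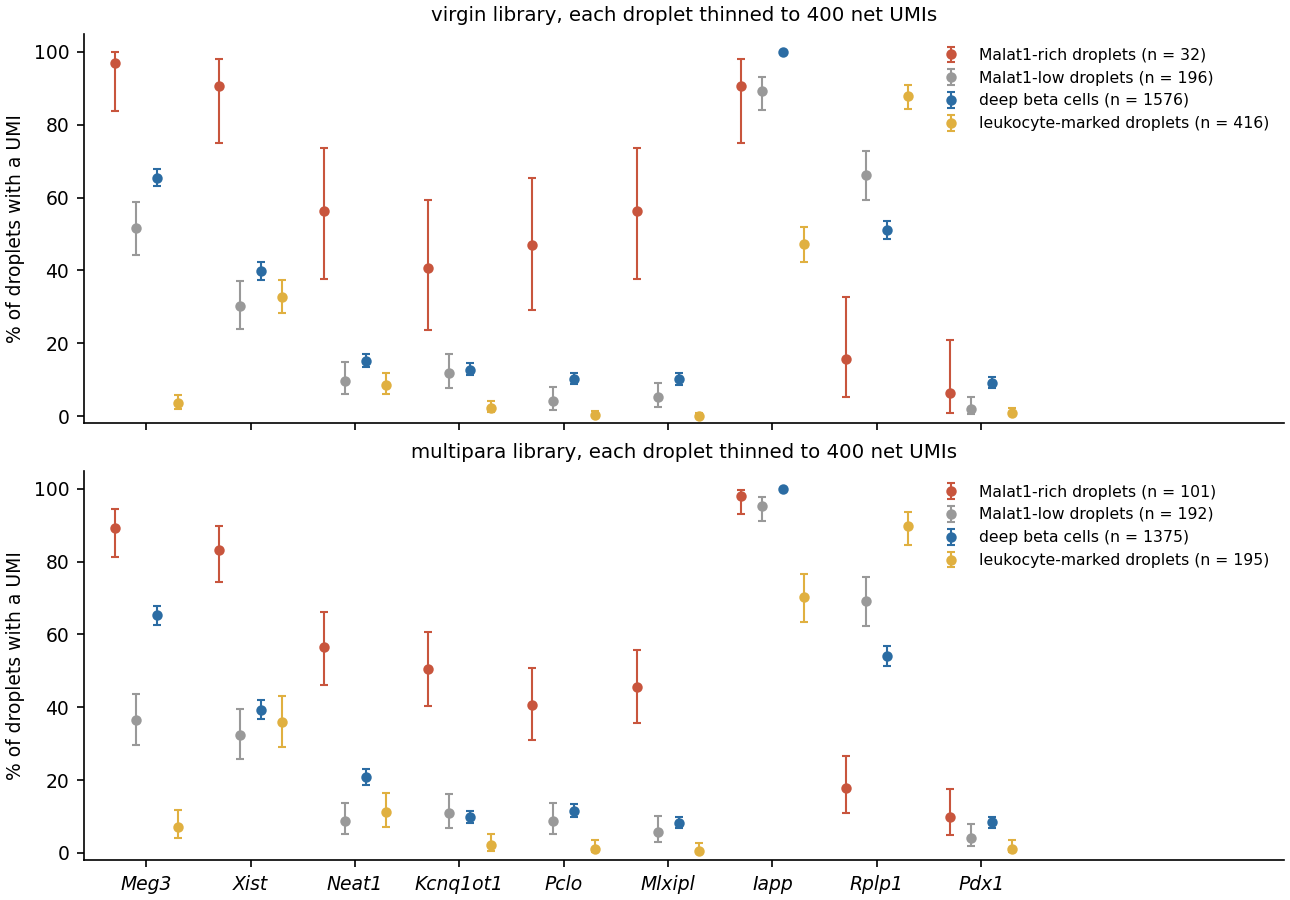
Percent of droplets with at least 1 UMI of each gene after thinning every droplet to 400 net UMIs, by library, for Malat1-rich droplets, Malat1-low droplets, deep beta cells and leukocyte-marked droplets of any depth, with exact 95% binomial intervals as bars. Meg3, a marker picked from the same counts, reached 96.9% of virgin and 89.1% of multipara Malat1-rich droplets and Rplp1 15.6% and 17.8%, while Malat1-low droplets had 66.3% and 69.3% for Rplp1.

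mRNAs that are known to be held in the nucleus, many of them with a detained intron, were higher in members. The list of 24 genes, the marker Mlxipl included, gave 2.06% of net UMIs in virgin and 1.91% in multipara members, against 0.544% and 0.505% in deep beta cells. With the marked droplets left out, virgin and multipara members had 2.16% and 2.11%. All 20 genes of the list that had enough UMIs were called higher, the marker Mlxipl among them, but 7 had enough only through the members. Of the 12 besides Mlxipl that met the limit by their level in deep beta cells, 12 were called higher (median log2 difference 1.58). Son, which encodes a scaffold protein of nuclear speckles, had 2273 and 2267 CPM against 473 and 450 CPM (2.25, SE 0.27, adjusted p = 1.05e-14). Nktr, a cyclophilin-related gene, had 2480 and 2231 CPM against 609 and 593 CPM (1.92, SE 0.27, adjusted p = 1.56e-11). Rbm39, which encodes a splicing factor, had 2514 and 1904 CPM against 748 and 683 CPM (1.56, SE 0.26, adjusted p = 3.37e-08). For each of these genes both member sums lay above both beta cell sums.

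Genes of great length that are used in neurons and endocrine cells were higher too. The list of 26 gave 0.785% of net UMIs in virgin members and 0.815% in multipara members, against 0.211% and 0.193% in deep beta cells. No limit on UMIs touched these sums, but they include the marker Pclo, with 48 virgin and 176 multipara member UMIs. Without the marked droplets the member shares were 0.837% and 0.911%, and no share without Pclo is given. All 8 genes that had enough UMIs were called higher, the marker Pclo among them, and 5 of the 8 had enough only through the members, so this count is no support for the list. Of the 2 genes besides Pclo that met the limit by their level in deep beta cells, Dst and Zbtb20, both were called higher. Auts2, a nuclear regulator gene that spans 1106 kb, passed the limit only through the members. It had 861 and 789 CPM in members and 125 and 122 in deep beta cells (2.70, SE 0.27, adjusted p = 1.20e-20). Dst, which encodes the cytoskeletal linker dystonin, had 1102 and 698 CPM against 274 and 267 (1.62, SE 0.29, adjusted p = 2.28e-07). Zbtb20, a transcription factor gene of 767 kb, had 723 and 1279 CPM against 419 and 366 (1.35, SE 0.32, adjusted p = 5.86e-05).

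The relation to gene length ran across all protein-coding genes tested. Genes that span under 5 kb in the annotation (213 genes) had a median log2 difference of -1.12 between members and deep beta cells, and 66.7% of them were called lower and 11.7% higher. Genes that span over 100 kb (128 genes) had a median of 1.37, with 78.1% called higher and 3.91% lower. The classes between lay at -0.87 from 5 to 10 kb, -0.64 from 10 to 20 kb, 0.14 from 20 to 50 kb and 0.85 from 50 to 100 kb. Each library on its own had the same ends, -1.0 and -1.07 under 5 kb and 1.43 and 1.38 over 100 kb. Ribosomal protein and oxidative phosphorylation genes are mostly short, and without them the medians were -0.67 under 5 kb, -0.50 from 5 to 10 kb, -0.61 from 10 to 20 kb and 0.17 from 20 to 50 kb, so that the classes below 20 kb were not in order of length. Long genes that are high in members passed the limit on UMIs more easily, and the shares called are given as a description. Across 1000 genes the Spearman rho of the difference was 0.50 with span, 0.66 with exonic length and -0.16 with mean CPM. Genes are not independent replicates, and these coefficients are a description. Against Malat1-low droplets the medians ran from -1.41 under 5 kb to 1.0 over 100 kb.

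**Figure D3:**
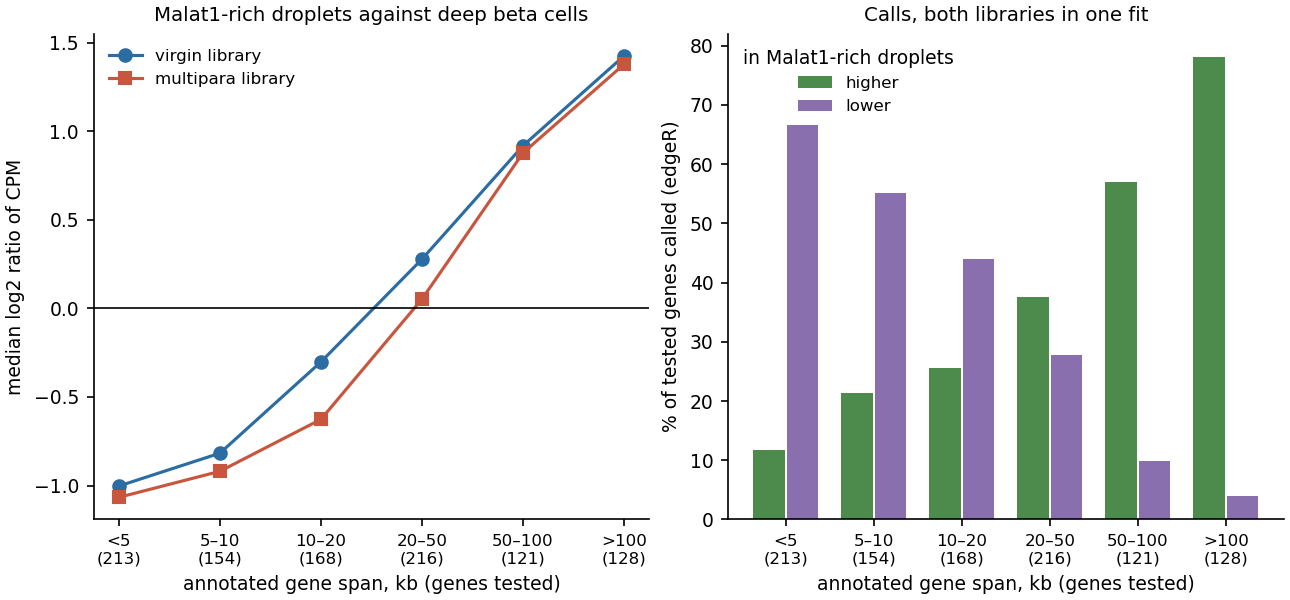
Left, median log2 ratio of CPM of Malat1-rich droplets to deep beta cells in each library, for protein-coding genes grouped by the length they span in the genome (kb, number of genes in brackets), and right, the percent of genes in each group called higher or lower by edgeR over both libraries. The medians run from -1.0 and -1.07 under 5 kb to 1.43 and 1.38 over 100 kb, and the share called higher from 11.7% to 78.1%.

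Ribosomal protein mRNAs, the most abundant cytosolic group, were lower in members. They gave 4.05% of net UMIs in virgin members (3.83 to 4.29) and 3.57% in multipara members (3.46 to 3.68), against 9.09% and 8.96% in deep beta cells and 15.9% and 18.3% in Malat1-low droplets. Without the marked droplets the member shares were 3.92% and 2.56%. In the virgin library 2 members lay above 15%, and neither was insulin-dominant, while the 30 insulin-dominant virgin members lay between 0.593 and 5.96%. Of 77 ribosomal protein genes tested, 0 were called higher and 75 lower than in deep beta cells, with a median log2 difference of -1.31. Rps24, the member of the list with the most UMIs, had 1240 and 970 CPM against 2258 and 2242 (-1.10, SE 0.26, adjusted p = 8.93e-05). Rpl41 had 861 and 1007 CPM against 2292 and 2365 (-1.35, SE 0.27, adjusted p = 2.88e-06). Ribosomal protein genes have many processed copies in the genome, so the split of reads within the family is uncertain.

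Nuclear-encoded mRNAs of oxidative phosphorylation, whose proteins are imported into mitochondria, were lower as a group. They gave 0.706% and 1.08% of net UMIs in members and 2.51% and 2.67% in deep beta cells, and all 42 genes of the list's 76 that could be tested were called lower. With the marked droplets left out, the list gave 0.634% in virgin and 0.836% in multipara members. Cox8a, a subunit of cytochrome c oxidase, had 241 and 463 CPM against 1051 and 1131 (-1.58, SE 0.33, adjusted p = 5.82e-06). Atp5b, the catalytic subunit of ATP synthase, had 207 and 299 CPM against 604 and 614 (-1.22, SE 0.36, adjusted p = 0.00119). Of 22 other abundant cytosolic mRNAs tested, 0 were called higher and 16 lower, with a median of -1.27. Ubb, a ubiquitin gene, was lower by that test (-0.57, SE 0.22, adjusted p = 0.0142), while beta-actin (Actb) was not called, with 1688 and 1832 CPM in members and 1597 and 1867 in deep beta cells (adjusted p = 0.939).

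mRNAs for the ER and for the secretory granule were lower in members as well. The granule list, with insulin left out, gave 3.18% of net UMIs in virgin and 3.68% in multipara members and 16.6% and 16.7% in deep beta cells. Of its 16 genes tested, 1 was called higher and 13 lower, with a median log2 difference of -1.51. With the marked droplets left out, the granule list gave 3.31% in virgin and 4.15% in multipara members. Iapp (chr6:142298423-142303961, plus strand) had 13742 and 20659 CPM in members and 118115 and 122925 CPM in deep beta cells (-2.89, SE 0.17, adjusted p = 8.89e-56). Chga, which encodes the granule protein chromogranin A, had 2790 and 4217 CPM against 19532 and 16736 (-2.42, SE 0.21, adjusted p = 1.20e-26). Pcsk2, the gene of a prohormone convertase that spans 270 kb, had 2411 and 2041 CPM against 2991 and 3437 (-0.59, SE 0.24, adjusted p = 0.0196). Of 26 genes for ER translocation and folding, 1 was called higher and 21 lower, with a median of -1.57. Sec61g, a subunit of the translocation channel, had 103 and 218 CPM against 1004 and 1144 (-2.63, SE 0.37, adjusted p = 3.87e-11), whereas the chaperone gene Hspa5 was not called, with 3926 and 3093 CPM against 3293 and 3779 (adjusted p = 0.763).

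**Figure D4:**
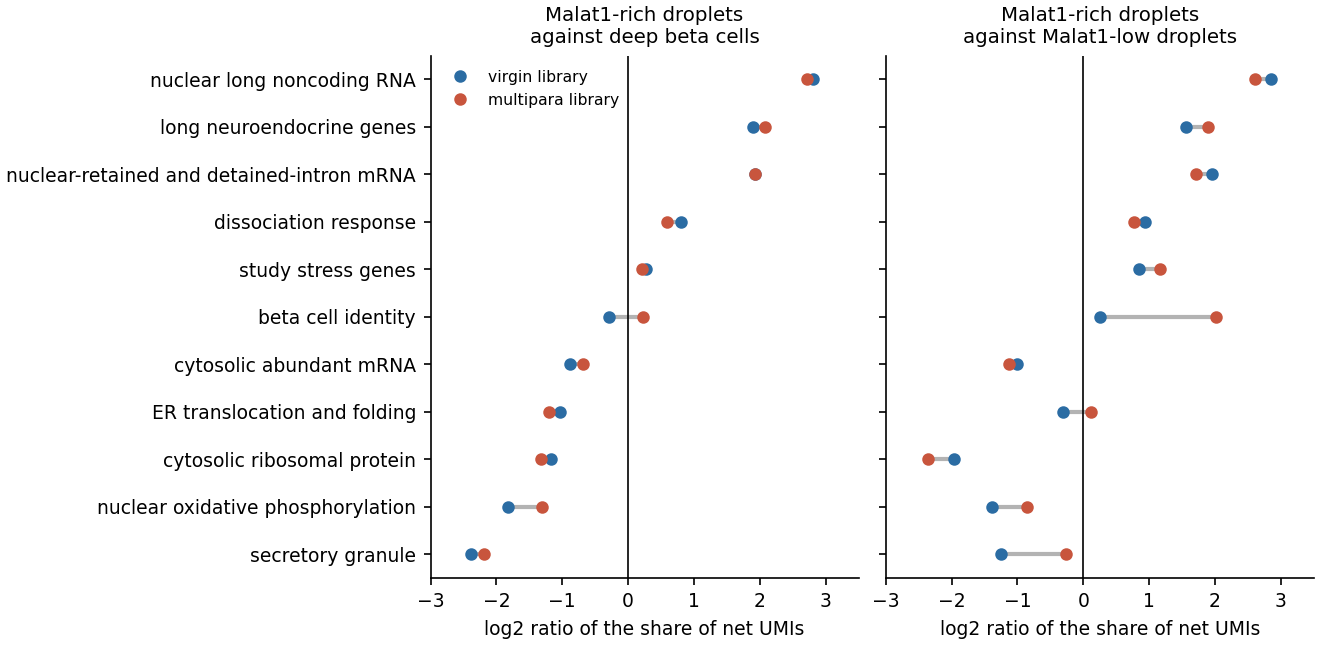
Log2 ratio of the share of net UMIs of each gene list in Malat1-rich droplets to that in deep beta cells and in Malat1-low droplets, with 1 point per library. Nuclear long noncoding RNAs, Meg3 included, lie at 2.81 and 2.71 against deep beta cells, ribosomal protein mRNAs at -1.16 and -1.33 and secretory granule mRNAs at -2.39 and -2.18.

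The 12 highest differences were taken from called genes averaging 200 CPM or more, with 1 sign in both libraries, and beside Xist and Snhg11 they came from 3 groups. The first were mesenchymal genes: Mgp (matrix Gla protein, 8.75), Rgs5 (a pericyte gene, 8.69) and Timp3 (a protease inhibitor, 6.47). Mgp had UMIs in 2 of 34 virgin and 7 of 116 multipara members, and 97.1% of its virgin UMIs were in 1 droplet. These 3 genes were not tested without the marked droplets. The second group were noncoding RNAs besides those of the list: Gm26917 (3.78), AC121960.2 (3.41), AY036118 (2.98) and A230057D06Rik (2.97). Gm26917 and AY036118 lie beside each other on chromosome 17 at a locus with ribosomal RNA-like sequence, so the origin of their reads is uncertain. The third were Mlxipl and the protein-coding genes Carmil3, an actin capping regulator (3.09), and Pyy, the peptide YY gene (2.96). Pyy rested on few droplets, with 348 UMIs in virgin members of which 56.0% were in 1 droplet, and over insulin-dominant members it was not called.

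The 12 lowest differences included Iapp, Chga and Pcsk1n (-2.39), which encodes the granule protein proSAAS. Enho, the gene of the secreted peptide adropin, was the lowest at -3.23 (SE 0.45, adjusted p = 2.42e-11), with 2 and 7 UMIs in all members. Atp6v1e1, a subunit of the vacuolar proton pump, was at -2.94 with 1 and 7 UMIs. Prnp, the prion protein gene, was at -2.69, and Spint2, a membrane-bound protease inhibitor, at -2.53. Sec11c, a subunit of signal peptidase, was at -2.38, Ost4, a subunit of the oligosaccharyltransferase, at -2.49 and Surf4, a cargo receptor of the ER, at -2.43, so that 4 of the 12, with Sec61g, serve the ER. Coa3, an assembly factor of cytochrome c oxidase, was at -2.52. All 12 were drawn from called genes, and all 12 kept their sign without the marked droplets. Member UMIs were also few for Coa3 (1 virgin and 10 multipara), Surf4 (2 and 7), Ost4 (3 and 8) and Spint2 (5 and 5). The same held for Sec11c (3 and 16), Prnp (2 and 17) and Sec61g (3 and 24).

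Insulin-dominant members were also tested alone against deep beta cells. Droplets with mesenchymal markers remained among them. Mgp had 34 virgin and 235 multipara UMIs and Rgs5 11 and 113, as many as over all members. The log2 differences of these 2 genes were 8.75 and 8.62. Of 784 genes tested, 245 were higher (31.2%) and 320 lower (40.8%), with a median log2 difference of -0.24. Over the 553 genes that met the limit by their level in deep beta cells, 9.95% were higher and 57.9% lower. Among these, with the markers Meg3, Mlxipl and Pclo set aside, 3 of 3 nuclear long noncoding RNAs, 7 of 7 detained-intron mRNAs (median 1.44) and 2 of 2 long genes were called higher. Of 77 ribosomal protein genes, 76 were called lower (median -1.83), and 36 of 36 oxidative phosphorylation genes.

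Low depth was shared with the Malat1-low droplets, and the members differed from these as well, but the 2 classes also differed in cell mix. The log2 ratio of members to Malat1-low droplets was -2.86 (virgin) and -2.38 (multipara) for alpha cell markers other than Gcg. For delta cell markers other than Sst it was -1.83 and -6.70. Markers of non-endocrine cells were also more frequent in Malat1-low droplets, as given above. The part of cell type in the differences was not tested. Of 963 genes tested, 274 were higher in members (28.5%) and 290 lower (30.1%). With no scaling factors between the sums the split was 320 higher and 203 lower, and the median log2 difference of all genes moved from 0.03 to 0.35. With DESeq2 in place of edgeR 124 were higher and 191 lower, and with hormones of at least 20% in both classes 0 of 95 genes tested were called by edgeR in either direction, with 34 at an unadjusted p under 0.05. With insulin of at least 5% in both classes, 125 of 715 genes tested were higher and 212 lower. Over the 684 genes that met the limit by their level in Malat1-low droplets, 11.5% were higher and 42.4% lower. Among these, with the markers Meg3, Mlxipl and Pclo set aside, 3 of 3 nuclear long noncoding RNAs, 10 of 12 detained-intron mRNAs (median 1.35) and 1 of 3 long genes were called higher. Ribosomal protein genes were lower in 78 of 79 cases (-2.55), and of 35 oxidative phosphorylation genes 28 were lower and 1 higher (-1.42). Neat1 was 2.60 higher on the log2 scale (SE 0.37, adjusted p = 6.82e-11). The granule list was less uniform there, with 1 of 15 genes higher and 8 lower. Iapp did not pass the test, with 13742 and 20659 CPM in members and 33998 and 21672 in Malat1-low droplets (adjusted p = 0.244).

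Within the droplets of low depth, both groups of RNA differed between classes of Malat1 content, which the rule used, and are described with no test. Below 5% Malat1, ribosomal protein mRNAs gave 15.1 to 16.5% of net UMIs in virgin droplets and 18.0 to 19.01% in multipara droplets, whether Malat1 was under 1%, 1 to 2% or 2 to 5%. From 5 to 10% Malat1 they gave 9.35% in 8 virgin and 4.76% in 58 multipara members, and from 10 to 20% 1.37% in 14 and 2.43% in 48. At 20% or more they gave 1.997% in 12 virgin and 1.79% in 10 multipara members. Nuclear long noncoding RNAs gave 1.77% and 2.74% between 5 and 10% Malat1, and 4.42% and 3.84% between 10 and 20%. The 8 virgin members with 5 to 10% Malat1 include the marked droplet and the 2 droplets with over 15% ribosomal protein mRNA. The 12 multipara marked droplets had between 5.16 and 16.9% Malat1 (median 7.37%). They gave 1591 UMIs of ribosomal protein mRNAs and 28 of nuclear long noncoding RNAs. All 58 multipara members with 5 to 10% Malat1 gave 2688 and 1545. The multipara values by Malat1 class thus depend on marked droplets, and values without them are not given.

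The number of different genes per UMI in members was like that of other droplets of low depth. Thinned to 600 UMIs, members had a median of 326 (virgin) and 321 (multipara) genes, Malat1-low droplets 328 and 323, and deep beta cells 192 and 187, where insulin takes many of the UMIs. With Malat1, hormones and mt- genes removed and thinning to 400 UMIs, the medians were 333.5 and 328 in members, 317 and 303.5 in Malat1-low droplets and 309 and 307 in deep beta cells.

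The ratio of each RNA to insulin was set beside that of free RNA. RNA that reaches droplets from the medium should keep the ratios it has there, and leukocyte-marked droplets under 3000 UMIs give those ratios for RNAs that leukocytes do not make. Per 1000 insulin UMIs, members had 80.8 (virgin) and 59.6 (multipara) of Iapp, leukocyte-marked droplets 92.6 and 79.7, and deep beta cells 75.2 and 75.1. Chga had 16.4 and 12.2 in members, 20.2 and 11.2 in leukocyte-marked droplets and 12.4 and 10.2 in deep beta cells. Over these classes Iapp thus lay between 59.6 and 92.6 and Chga between 10.2 and 20.2. Meg3 had 118 (109 to 128) and 53.0 (50.7 to 55.4) per 1000 insulin UMIs in members, against 3.40 and 2.56 in leukocyte-marked droplets and 1.83 and 1.70 in deep beta cells. Insulin was part of the rule in every ratio here, and Meg3 was picked as a marker from the same counts. The high Meg3 ratio of members thus depends on how they were chosen and is a description. The beta cell identity genes had 32.8 and 21.7 in members, 7.88 and 2.72 in leukocyte-marked droplets and 4.35 and 3.92 in deep beta cells. Scg2, the gene of the granule protein secretogranin II, had 17.8 and 7.48 in members, 9.11 and 4.64 in leukocyte-marked droplets and 3.45 and 3.33 in deep beta cells, so that not every granule mRNA kept 1 ratio. RNAs that leukocytes make themselves cannot be read in this way: Xist had 58.9 and 25.8 in members and 50.5 and 11.7 in leukocyte-marked droplets, Malat1 1530 and 544 against 1121 and 341, and the detained-intron list 121 and 55.2 against 260 and 75.4, higher in the leukocyte-marked droplets. How much of the insulin, Iapp, Scg2 and Chga RNA of a member was free RNA was not tested.

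**Figure D5:**
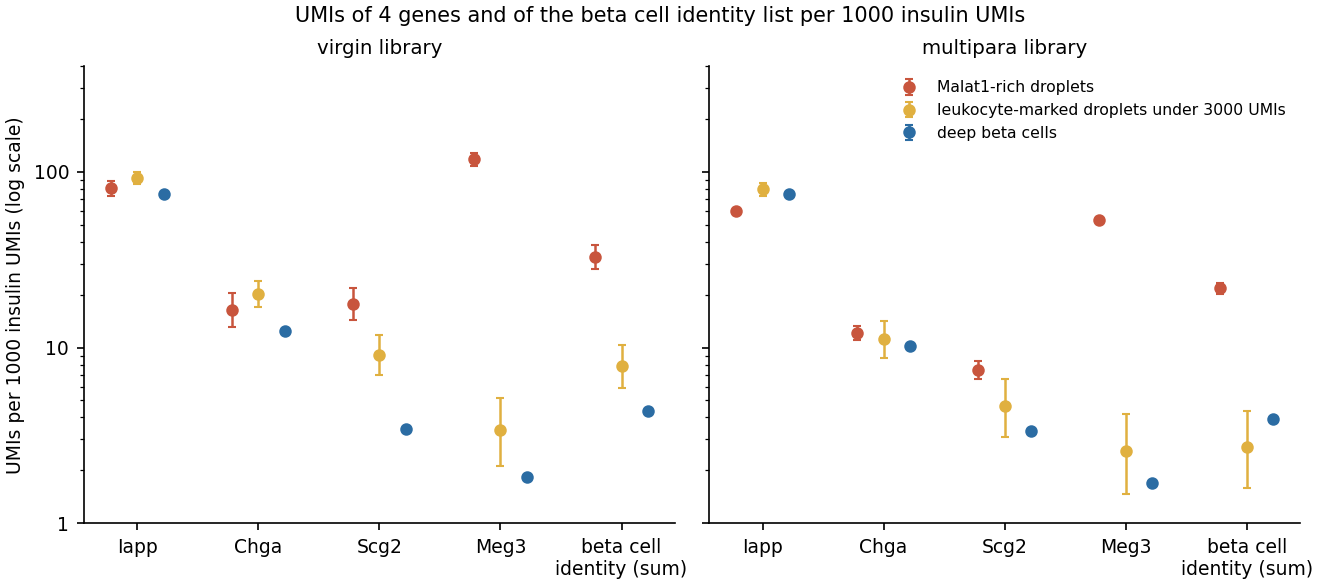
UMIs of Iapp, Chga, Scg2, Meg3 and the summed beta cell identity genes per 1000 insulin UMIs (log scale) in Malat1-rich droplets, leukocyte-marked droplets under 3000 UMIs and deep beta cells of each library, with exact 95% Poisson intervals on the gene's count as bars. Iapp is at 80.8 and 59.6 in Malat1-rich droplets and 75.2 and 75.1 in deep beta cells, while Meg3, a marker picked from the same counts, is at 118 and 53.0 against 1.83 and 1.70.

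The summed share of transcription factors and sensors of beta cell identity lay on opposite sides of the beta cell level in the 2 libraries. The list of 17 genes gave 0.558% of net UMIs in virgin members (0.475 to 0.651) and 0.753% in multipara members (0.702 to 0.806), against 0.683% and 0.641% in deep beta cells. Of 11 genes tested, 3 were called higher and 5 lower, with a median of -0.08. Per library, the median log2 ratio of the tested genes was -0.24 (virgin) and 0.02 (multipara) over all members. Over insulin-dominant members, 30 of 34 virgin and 114 of 116 multipara, it was 0.05 and 0.04. Pax6, a transcription factor of all islet endocrine cells, had 999 and 1252 CPM against 380 and 356 (1.59, SE 0.31, adjusted p = 1.44e-06). Mafa, a factor of mature beta cells, was lower in the fit (-0.68, SE 0.32, adjusted p = 0.0459), but had 207 CPM in virgin members and 925 in multipara members against 898 and 932 in deep beta cells, so that the difference lay in the virgin library. Nkx6-1 (adjusted p = 0.528) and Abcc8, the sulfonylurea receptor gene (adjusted p = 0.125), were not called. Nkx6-1 had 689 and 762 CPM in members and 637 and 593 in deep beta cells. Against Malat1-low droplets, which differed from members in cell mix, 5 of 10 genes were called higher and 0 lower.

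Immediate early and heat shock genes, which islet cells switch on during dissociation, were higher in part. The dissociation list gave 4.13% and 3.92% of net UMIs in members and 2.36% and 2.61% in deep beta cells, and 13 of its 22 genes tested were called higher and 1 lower (10 and 1 of the 19 that met the limit by their level in deep beta cells). Fosb had 5958 and 5024 CPM against 1825 and 1956 (1.48, SE 0.23, adjusted p = 1.34e-09). Jun had 7164 and 6140 CPM against 2852 and 3755 (0.96, SE 0.22, adjusted p = 3.14e-05), and Btg2, an antiproliferative gene, was higher by 1.04 (SE 0.23, adjusted p = 2.78e-05). Fos was level, with 3857 and 4045 CPM against 3862 and 3682 (adjusted p = 0.938). Of the 9 stress genes the study named from these samples, 2 were called higher in members and 4 lower. Their share of net UMIs was slightly higher in members (0.434% and 0.636% against 0.358% and 0.551%) while the median log2 difference of the genes was -0.45, so sum and median differ in sign. The heat shock genes Hspa1a (1.18, SE 0.27, adjusted p = 3.30e-05) and Hspa1b (0.90, SE 0.31, adjusted p = 0.00558), which are near-identical copies and can share reads, were the 2 that were higher.

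Glucagon-dominant members were too few for a test, with 1 droplet per library. In them nuclear long noncoding RNAs gave 9.58% (virgin) and 5.13% (multipara) of net UMIs, against 0.704% and 0.749% in deep alpha cells (at least 10000 UMIs and 10% glucagon). Ribosomal protein mRNAs gave 1.60% and 2.08%, against 18.2% and 17.8%.

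Virgin and multipara members were compared as 2 libraries, with no test. Members were a larger share of the barcodes in the multipara library (2.29% against 0.622%), and without the marked droplets 2.05% (1.68 to 2.48) against 0.604% (0.416 to 0.847). Free hormone RNA was also higher in the multipara library, with a median hormone share of 5.93% in leukocyte-marked droplets under 3000 UMIs against 2.26%, and its part in the difference was not tested. With hormones of at least 20%, which 1 of 130 and 0 of 46 of those leukocyte-marked droplets reached, members were 0.128% of virgin and 1.12% of multipara barcodes. Whether the difference belongs to the mice, to the dissociation or to the loading of each library cannot be told apart.

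Of 109 genes with at least 100 UMIs in the members of both libraries together, 7 were higher past a log2 ratio of 1 in multipara members (6.42%) and 2 lower (1.83%). Members held 29036 virgin and 110266 multipara net UMIs, so genes high in multipara members passed this limit more easily. The split and the genes named from it are therefore a description. Mafa had 6 virgin and 102 multipara UMIs, a log2 ratio of CPM of 2.16 (95% exact conditional interval 0.99 to 3.64), against 0.05 in deep beta cells. Gadd45g, a stress-responsive growth arrest gene, had 8 and 109 UMIs (1.84, 0.81 to 3.09). Tmsb4x, an actin-binding peptide gene, was at 1.495 and the pericyte gene Rgs5 at 1.44, and both came from the marked droplets: without these Tmsb4x was at -0.27 (-1.36 to 0.94), and Rgs5 had 1 virgin and 0 multipara UMIs. Hspa1b was at 1.44 (0.46 to 2.62). Among the lowest, Pyy was at -3.71, with 348 and 101 UMIs, but at -0.48 over insulin-dominant members. Ddx50, an RNA helicase gene, was at -1.15 (-1.64 to -0.66), the immediate early gene Ier2 at -0.79, Dst at -0.66 and the ER stress gene Herpud1 at -0.63.

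The stress genes named by the study did not move together between the members of the 2 libraries. Hspa1a was at 1.11 (0.61 to 1.64) in members and 0.54 in deep beta cells, and Dnajb1, a co-chaperone gene, at 0.73 (0.03 to 1.52). Atf3, a stress-induced transcription factor gene, was lower in multipara members (-1.56, -2.23 to -0.88) and higher in multipara deep beta cells (0.58). The intervals of Atf5 (-0.24 to 3.80), Nupr1, Ddit3 and Sdf2l1 included 0. Fkbp11, a prolyl isomerase gene of the ER, had 0 virgin and 23 multipara UMIs, a ratio of 2.02-fold when 3 counts are set as the floor of the virgin sum. The exact conditional interval of its log2 ratio starts below that ratio, at 0.60, and at 0.32 over insulin-dominant members. In deep beta cells its log2 ratio was 0.73.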

How the data were processed

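The islets were profiled with 10x Chromium 3′ chemistry (v3.1), and the authors made the deposited UMI counts with Cell Ranger 3.1.0 and analysed them in Seurat 3.0, per the submitters' processing notes, which name GRCm38 and mm10. The deposited values are raw counts per gene and barcode for 31053 genes, already limited to called barcodes. Whether intronic reads were counted is not given in the sources used here.

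The members, gene lists, markers and tests were chosen with earlier results of these data known. Droplets were classed by the stated shares. Doublets were not called. The members' marked droplets had at least 3 UMIs of 1 marker list (ductal markers not used). Malat1, the 5 hormones and mt- genes were removed before sums and scaling. Genes were tested if their mean CPM over the 4 sums times the smallest sum reached 5 UMIs, with edgeR 4.0.16 (TMM, quasi-likelihood, ~ library + class, R 4.3.3) and called at an adjusted p under 0.05. DESeq2 1.42.0 was an alternative. The edgeR step was tested on simulated data with known changes. Gene positions came from GENCODE M21 on GRCm38. Summed depth was 29036 and 110266 net UMIs in members. Python 3.11.15, numpy 2.4.6, pandas 2.3.3, scipy 1.17.1 and matplotlib 3.10.9 were used.

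Named genes were the markers, up to 4 genes with most UMIs per list, the 12 highest and 12 lowest differences of at least 200 CPM called with the same sign in both libraries, the 5 highest and 5 lowest library ratios of at least 100 UMIs, and the stress genes of the study. Rplp1 and Pdx1 were added as examples of a cytosolic and a beta cell mRNA, and their choice was not part of that rule. Alternatives covered the thresholds of the rule, the depth of beta cells, scaling, the filter on low counts, DESeq2 and the marked droplets.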

Additional observations from a re-analysis of the deposited data

Results flagged for a closer look

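The beta cell identity list, taken as a summed share over all members, moved in opposite directions in the 2 libraries. The log2 ratio of its share of net UMIs in Malat1-rich droplets to that in deep beta cells was -0.29 in the virgin library and 0.23 in the multipara library, and without the droplets that carried mesenchymal or endothelial markers it was -0.19 and 0.48. The difference between the libraries was not tested, since each group was 1 library. The virgin value rests on 162 UMIs of the list, and Mafa had 6 UMIs there and 102 in the multipara library.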

How the results depend on the processing

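Nuclear long noncoding RNAs stayed higher and ribosomal protein mRNAs lower in members than in deep beta cells under each alternative tried, and the sizes moved with the thresholds of the rule. The count of genes higher in members than in deep beta cells was 12 with hormones of at least 20%, 208 with Malat1 of at least 10% and 219 with mt- genes under 5%, where fewer UMIs left fewer genes to test. The count lower was 3 with hormones of at least 20% and 1499 with no filter on low counts, and over insulin-dominant members 1377 with no filter. Against Malat1-low droplets, the count higher was 124 with DESeq2, 0 with hormones of at least 20%, 125 with insulin of at least 5% in both classes and 152 with no filter, and the count lower was 191 with DESeq2, 0 with hormones of at least 20% and 576 with no filter. With hormones of at least 20%, 34 genes had an unadjusted p under 0.05 in that comparison. The cause of the other shifts was not tested.

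The share of virgin barcodes was 0.128% with hormones of at least 20% and 1.501% with no mt- limit. The share of multipara barcodes was 1.14% with Malat1 of at least 10%, 1.12% with hormones of at least 20%, 1.69% under 2000 UMIs, 1.60% with mt- genes under 5%, 4.75% with no mt- limit and 3.34% of filtered barcodes. Averaged over the libraries, the log2 ratio of nuclear long noncoding RNAs was 2.76, and it was 2.90 with hormones of at least 20%, 3.03 with Malat1 of at least 10%, 2.94 with mt- genes under 5%, 2.99 under 2000 UMIs and 2.94 without the marked droplets. That of ribosomal protein mRNAs was -1.25, and in the same order -1.46, -2.20, -1.67, -2.09 and -1.51, with -1.72 over insulin-dominant members. With each library on its own these ratios ran from 2.71 to 2.81 and from -1.33 to -1.16. Fos, which was not called, was at -0.50 with Malat1 of at least 10% and -0.81 with no filter, and Pcsk2, Scg2 and Ssr4 at 0.049, 0.0517 and 0.0205 with hormones of at least 20%. Of the values of single genes against deep beta cells, 722 were on the same side of the threshold, 38 lost the call, 9 gained it and 5 reversed. The settings without marked droplets, with insulin of at least 5% and hormones of at least 20% in both classes, with no scaling and with 400 net UMIs were chosen after seeing the data. No paired analysis was possible because virgin and multipara have 1 library each. Members and reference droplets were compared within libraries, with the library as a block. With 1 library the gene tests have no residual degrees of freedom and were not refitted.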

Other observations

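Malat1-rich droplets of the same depth with under 5% hormone RNA numbered 23 (virgin) and 2 (multipara), so that the share of Malat1-rich droplets that also passed the hormone limit differed between the libraries. Free hormone RNA differed in the same direction, as given above.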
